A study of Mus musculus with 9 samples.

Results

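Autophagy encloses cytoplasm in a double membrane and delivers it to the lysosome. Its machinery is described here through 37 genes of 24532 in the deposited table, measured in neutrophils sorted from 3 tissues. The genes were chosen by symbol: the Atg genes, the LC3 genes Map1lc3a and Map1lc3b, the Gabarap genes, the Wipi genes, and Becn1, Ulk1, Ulk2, Rb1cc1, Pik3c3, Pik3r4, Uvrag, Ambra1, Optn, Nbr1, Tax1bp1 and Calcoco1. The rule uses symbols and no measured value, but it was chosen with earlier results of these data known. Neutrophils of lung, blood and bone marrow came from wild type C57BL/6 mice, an inbred strain, with no treatment given in the labels, and each tissue had 3 biological replicates. The labels give neither the age of the mice nor the markers and gates of the sort, nor whether animals were pooled. Whether the replicates are separate animals is not given either, so the p-values measure the spread between these samples. Polyadenylated RNA was sequenced, and the read counts summed to between 42045548 and 56796219 per library.

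In a cell that is starved or stressed, the ULK kinase complex starts the process, and a class III phosphatidylinositol 3-kinase then marks a growing membrane, the phagophore, with the lipid PI3P. WIPI proteins bind that lipid, ATG9 and ATG2 supply membrane lipid, and 2 ubiquitin-like conjugation systems attach LC3 and GABARAP proteins to the membrane after ATG4 proteases have trimmed them. Cargo receptors tie ubiquitin-tagged material to LC3 and GABARAP. In neutrophils autophagy genes are known for their part in maturation in the marrow and in degranulation.

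Promoter sequences of 4 members are shown, because Atg2a was higher in lung, Wipi1 had the largest fold differences of the 37 from bone marrow, and Atg3 and Atg5 hold the E-box core that the TFEB family of lysosome and autophagy regulators binds. Each run is the 250 bases before a RefSeq transcript start in GRCm38.p6, on the gene's strand, and capitals mark CACGTG or its longer form TCACGTGA, which contains it.
Wipi1, chr11:109611390-109611639, minus strand: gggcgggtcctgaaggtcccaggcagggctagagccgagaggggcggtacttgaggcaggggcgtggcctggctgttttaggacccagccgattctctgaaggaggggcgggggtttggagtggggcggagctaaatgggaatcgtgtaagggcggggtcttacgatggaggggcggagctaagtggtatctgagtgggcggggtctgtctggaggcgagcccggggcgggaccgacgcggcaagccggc
Atg2a, chr19:6241418-6241667, plus strand: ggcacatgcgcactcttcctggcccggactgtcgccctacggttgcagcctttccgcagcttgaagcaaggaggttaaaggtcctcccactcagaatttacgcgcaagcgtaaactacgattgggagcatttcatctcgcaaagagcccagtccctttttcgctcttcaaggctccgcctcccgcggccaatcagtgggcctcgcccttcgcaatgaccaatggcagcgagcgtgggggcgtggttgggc
Atg3, chr16:45158579-45158828, plus strand: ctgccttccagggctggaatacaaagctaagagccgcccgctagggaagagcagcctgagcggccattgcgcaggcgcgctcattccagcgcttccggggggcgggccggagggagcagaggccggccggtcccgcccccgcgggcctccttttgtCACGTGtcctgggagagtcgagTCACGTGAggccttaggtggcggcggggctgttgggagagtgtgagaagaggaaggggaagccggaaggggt
Atg5, chr10:44268089-44268338, plus strand: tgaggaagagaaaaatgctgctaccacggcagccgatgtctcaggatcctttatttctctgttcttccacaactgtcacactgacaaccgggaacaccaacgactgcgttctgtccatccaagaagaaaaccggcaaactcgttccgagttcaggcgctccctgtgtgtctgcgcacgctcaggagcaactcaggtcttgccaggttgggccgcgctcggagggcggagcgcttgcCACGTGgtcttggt

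Read on both strands, CACGTG was found in 3 of the 31 members with a promoter in the RefSeq table. These were Atg3, Atg5 and Atg7, all of the conjugation machinery, but the window of Atg7 lies 27999 bases from the start the deposited table gives, inside the gene. By promoter, 8.57% of the members' 35 windows held it, against 6.02% of all 32851 windows of the same length. The longer form stood in 1 member promoter, that of Atg3, and in 0.785% of all windows. The forkhead word TGTTTAC, which FOXO factors bind, stood in none of the 35 windows and in 3.17% of all. A match is a run of letters in this window and does not show that a factor binds there.

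The sorted cells carried the neutrophil markers in every library. The summed level of 10 of them, S100a8 to Il1r2, was 25879 to 47784 CPM in lung, 30533 to 43966 CPM in blood and 88869 to 128396 CPM in bone marrow. CPM is the count per 1e6 reads of a library, scaled between libraries by edgeR's trimmed-mean method (TMM). Markers of other cells moved with tissue and replicate, and none of the marker genes found was at 0 in every library. The 10 fibroblast markers summed to 1945, 1601 and 125 CPM in lung replicates 1, 2 and 3, against 42.7 to 174 CPM in blood and 88.7 to 197 CPM in bone marrow. The 12 lung epithelium markers summed to 919, 292 and 80.1 CPM in the same lung libraries, against 23.5 to 38.0 CPM in blood and 23.2 to 94.7 CPM in bone marrow. The 11 macrophage markers summed to 298 to 1280 CPM in lung, 209 to 246 CPM in blood and 870.0 to 1168 CPM in bone marrow. One of them, Chil3, gave 800 to 1082 CPM of the bone marrow sums, and the other 10 summed to 226 to 353 CPM in lung, 139.9 to 171 CPM in blood and 65.6 to 86.5 CPM in bone marrow. The 9 B cell markers reached 466 CPM in lung replicate 1 and 401 CPM in blood replicate 1, and were lowest in replicate 3 of each tissue. The 11 granulocyte precursor markers summed to 220.4 to 330.4 CPM in lung, 286 to 387 CPM in blood and 18538 to 23789 CPM in bone marrow. The 11 erythroid markers in the table summed to 32.6 to 165 CPM in lung, 329 to 696 CPM in blood and 706 to 1125 CPM in bone marrow. The 9 dendritic cell markers summed to 2207, 1646 and 470 CPM in lung replicates 1, 2 and 3. They summed to 162 to 1049 CPM in blood and 66.1 to 143 CPM in bone marrow. The 9 monocyte markers summed to 2403 to 3635 CPM in lung, 1839 to 2365 CPM in blood and 1764 to 2348 CPM in bone marrow. T and NK cell, endothelium and platelet sums reached at most 121, 117 and 196 CPM. In these bulk samples fewer cells of a type and less RNA per cell cannot be told apart, and the part of other cells in the differences described here was not tested. The scaling factors were lowest in replicate 3 of each tissue, at 0.791 in lung, 1.05 in blood and 0.776 in bone marrow, against 0.899 to 1.26 in the other 6 libraries. In CPM replicate 3 was the highest library of its tissue for 27 of the 37 members in lung, 24 in blood and 25 in bone marrow. It was the highest for 8, 13 and 11 of them in the deposited FPKM, which is per length and per library total, with no TMM scaling.

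One row does not describe the gene it is named for. The table places Atg4a at chr3:103643953-103646068 of mm10, which is the position RefSeq gives for the pseudogene Atg4a-ps, while RefSeq places the Atg4a gene on chromosome X. Its counts were 0.0654 to 0.288 times the RSEM counts of Atg4a in the lung and blood libraries. The RSEM files held 107 to 188 reads for Atg4a and at most 1.37 for Atg4a-ps. The row, at 0.174 to 1.10 CPM, is therefore counted among the 37 but not read as Atg4a. The other 36 members lay at their RefSeq position. All 37 passed the filter on low counts.

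Levels per length spanned a wide range. Gabarap led at 527 ± 30.6 FPKM in lung, 472 ± 19.2 FPKM in blood and 448 ± 49.5 FPKM in bone marrow (SD, n = 3 each). Map1lc3b followed at 284 ± 39.0, 266 ± 37.6 and 357 ± 26.0 FPKM in lung, blood and bone marrow. Next in lung came the lipid transfer gene Atg2a, at 141 ± 6.48 FPKM against 58.4 ± 7.19 FPKM in blood and 64.7 ± 13.6 FPKM in bone marrow. Next in blood and bone marrow came Atg3, an E2-like enzyme gene, at 83.3 ± 10.5, 153 ± 7.92 and 110.04 ± 6.08 FPKM in lung, blood and bone marrow. The cargo receptor gene Tax1bp1 followed in each tissue. At the low end Atg10, the E2-like enzyme that joins ATG12 to ATG5, stood at 0.939 ± 0.431, 0.871 ± 0.203 and 0.528 ± 0.183 FPKM in lung, blood and bone marrow. Atg14, the subunit that directs the lipid kinase to autophagy, stood at 1.11 ± 0.60, 0.833 ± 0.237 and 0.991 ± 0.249 FPKM. Atg9b, a relative of Atg9a, stayed at 0 to 0.436 CPM, with counts too low for its differences to be read.

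**Figure D1:**
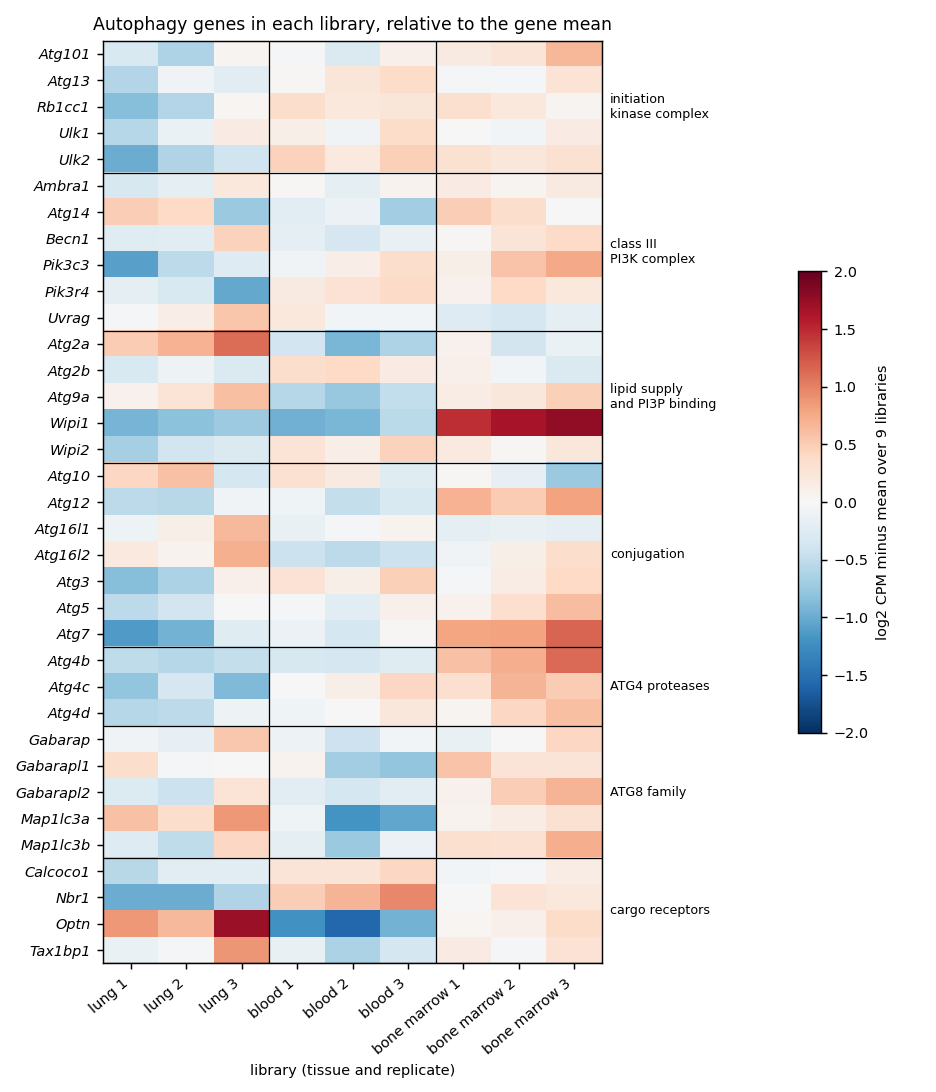
Rows are 35 members grouped by role, without Atg9b and the Atg4a row, and columns are the libraries of lung, blood and bone marrow. Colour is log2 CPM minus the gene's mean over the 9 libraries: Wipi1 is highest in the 3 bone marrow libraries, and Optn is lowest in the 3 blood libraries.

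Lung neutrophils had higher levels of Optn, Atg2a, Map1lc3a, Atg9a and Atg16l2 than blood neutrophils, and lower levels of Nbr1, Ulk2, Atg4c, Pik3r4, Wipi2, Pik3c3, Rb1cc1, Calcoco1 and Atg2b. These 5 higher and 9 lower members of 37 passed the threshold of 0.05 on edgeR's adjusted p (quasi-likelihood fit, Benjamini-Hochberg over all genes), where 13.2% of all 13510 genes tested were called higher and 15.7% lower. The median log2 fold change was -0.09 over the members and 0.05 over all genes. Lung and blood replicates did not overlap in 19 members, against 41.6% of all genes. The count of 14 fell to 8 without blood replicate 1, 8 without blood replicate 2 and 5 without blood replicate 3. Calls over all genes fell from 3900 to 2527, 2338 and 1922 in the same fits. With every setting tried, Optn and Atg2a stayed higher and Nbr1 and Ulk2 lower.

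Against bone marrow, lung neutrophils had higher Optn, Atg2a and Uvrag and lower levels of 14 members, led by Wipi1, Atg7, Atg4b, Atg4c, Pik3c3, Atg12 and Nbr1. All genes gave 15.6% higher and 22.6% lower. The median log2 fold change was -0.36 over the members and 0.06 over all genes. Replicates did not overlap in 21 members, against 49.0% of all genes. The count of 17 was 10, 11 and 11 without blood replicates 1, 2 and 3, which share the estimate of the spread, and 10 without bone marrow replicate 2 or 3. Over all genes the calls were 4136, 4178 and 4662 without those blood libraries and 3258 and 3933 without those bone marrow libraries, against 5158. In every setting tried, 8 members stayed lower: Atg12, Atg4b, Atg4c, Atg7, Nbr1, Pik3c3, Ulk2 and Wipi1.

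Blood neutrophils had no member higher than bone marrow neutrophils by that test, and 9 lower: Wipi1, Optn, Atg4b, Atg7, Atg12, Atg9a, Gabarapl1, Gabarapl2 and Atg16l2. All genes gave 8.34% higher and 13.1% lower. At an unadjusted p under 0.05, 13 members differed in either direction, and the share of all genes at that cut was not computed. DESeq2 called 2 members higher, limma-voom 0 and limma on log2(FPKM + 0.1) 7, and a fit of these 2 tissues alone called 4 higher. Of all genes called by these fits, in the same order, 44.5%, 38.0%, 67.1% and 54.9% were higher, against 39.0% by the test above. The median log2 fold change was -0.36 over the members and -0.05 over all genes, and replicates did not overlap in 20 members, against 45.4% of all genes. The count of 9 was 4, 2 and 2 without blood replicates 1, 2 and 3 and 5 without bone marrow replicate 3. Calls over all genes fell from 2892 to 1555, 1236, 1499 and 1665 in the same fits. Wipi1 and Atg4b stayed lower in every setting tried. The comparisons share libraries, so their counts are not independent.

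Scaling bears on these splits, and so does the unit. On FPKM, with limma, members were 6 higher and 13 lower, 5 higher and 12 lower, and 7 higher and 6 lower, in the same order of comparisons as above. Of all genes called on FPKM, 34.7%, 50.9% and 67.1% were higher. With upper-quartile scaling the median of all genes moved up by 0.16 in lung against blood, 0.32 in lung against bone marrow and 0.15 in blood against bone marrow. Member calls were then 6 higher and 5 lower, 6 higher and 9 lower, and 4 higher and 8 lower. The share of higher calls among all called genes was 55.9%, 59.3% and 52.6% with it, against 45.6%, 40.9% and 39.0% with the trimmed mean. With DESeq2 size factors the median of all genes moved up by 0.13 in lung against bone marrow, the calls were 5 higher and 5 lower, 3 higher and 9 lower, and 0 higher and 6 lower, and the shares over all genes were 56.9%, 52.0% and 43.1%. No called member changed sign under any setting.

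**Figure D2:**
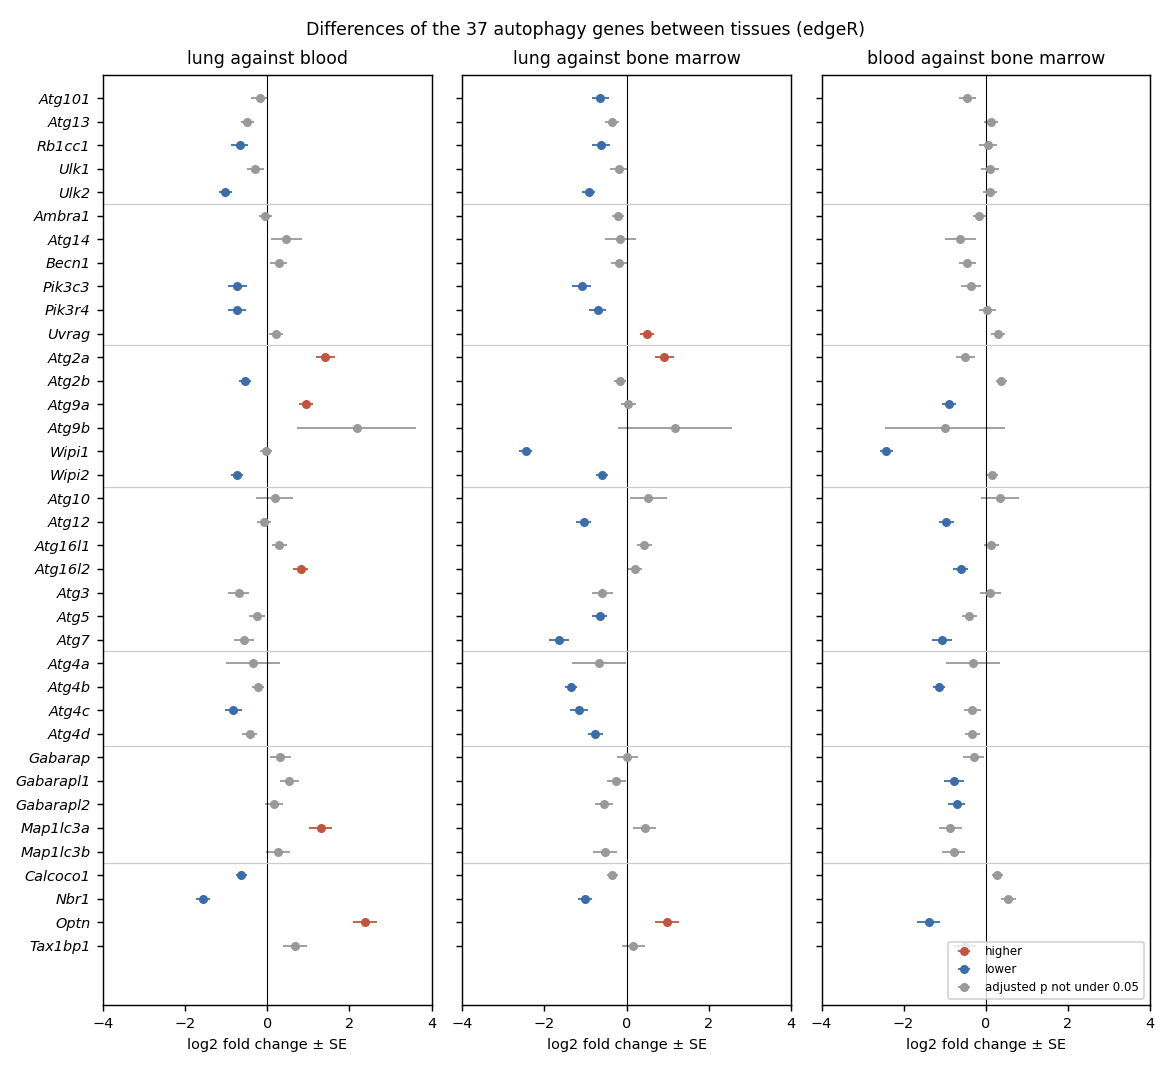
Points are edgeR log2 fold changes with SE for all 37 genes, ordered by role, for lung against blood, lung against bone marrow and blood against bone marrow. Red and blue points passed an adjusted p under 0.05 as higher and lower, and no red point appears in blood against bone marrow.

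Of the 5 genes of the initiation kinase complex, 2 fell in lung against blood and 3 fell in lung against bone marrow, and none passed in blood against bone marrow. Of all genes tested, 15.7% were lower in lung against blood and 22.6% in lung against bone marrow. Ulk2 (chr11:61775598-61855092), 1 of the 2 kinases that start autophagy, had 21.5, 28.2 and 32.6 CPM in lung, against 59.1, 48.9 and 59.5 CPM in blood and 52.8, 50.0 and 53.0 CPM in bone marrow. All 3 lung libraries lay below all 6 others. The difference on the log2 scale was -1.03 ± 0.16 against blood (edgeR adjusted p = 0.00247) and -0.92 ± 0.16 against bone marrow (edgeR adjusted p = 0.00237). Its partner kinase gene Ulk1 did not pass, at 178, 242 and 297 CPM in lung, 285, 252 and 342 CPM in blood and 266, 255 and 296 CPM in bone marrow. Rb1cc1, which encodes the scaffold FIP200, had 55.8, 67.2 and 104 CPM in lung, against 128, 116 and 119 CPM in blood and 126, 117 and 104 CPM in bone marrow. Its lung libraries spread widely and lay below all others, lung replicate 3 only just. It fell by 0.68 ± 0.22 against blood (edgeR adjusted p = 0.043) and by 0.62 ± 0.22 against bone marrow (edgeR adjusted p = 0.0495) on the log2 scale. In both comparisons the call ended without any single library other than lung replicate 3, at edgeR adjusted p = 0.0626 to 0.234 and 0.0788 to 0.225. Atg101, which stabilises ATG13, had 51.4, 41.5 and 65.9 CPM in lung, 61.3, 51.8 and 68.1 CPM in blood and 71.7, 75.3 and 99.9 CPM in bone marrow. It was lower in lung than in bone marrow at -0.64 ± 0.21 (edgeR adjusted p = 0.037), and this ended without lung replicate 1 or 2, any blood library, or bone marrow replicate 2 or 3 (edgeR adjusted p = 0.069 to 0.165). Atg13, the adaptor of the complex, did not pass in any comparison, but with the replicate number as a block it was lower in lung than in blood and in bone marrow (edgeR adjusted p = 0.0211 and 0.0484).

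In the class III PI3K group, the catalytic and scaffold genes were lower in lung than in both other tissues, and Uvrag was higher in lung than in bone marrow. Pik3c3 (chr18:30272896-30348120), the lipid kinase VPS34, had 15.3, 22.5 and 27.0 CPM in lung, against 30.8, 35.4 and 41.2 CPM in blood and 35.1, 48.2 and 54.9 CPM in bone marrow. The lung libraries lay below all others. It differed on the log2 scale by -1.10 ± 0.24 against bone marrow (edgeR adjusted p = 0.00725). Against blood it was -0.73 ± 0.24 (edgeR adjusted p = 0.0476), a call lost without lung replicate 1 or 2, any blood library, or bone marrow replicate 2 or 3 (edgeR adjusted p = 0.0554 to 0.254). Pik3r4, which encodes the scaffold VPS15 of that kinase, had 13.3, 12.4 and 7.47 CPM in lung, 17.2, 18.7 and 19.8 CPM in blood and 16.2, 20.1 and 17.7 CPM in bone marrow. Lung replicate 3, which had the highest lung level of most members, had the lowest of Pik3r4. It fell in lung by 0.75 ± 0.22 against blood (edgeR adjusted p = 0.0293) and by 0.71 ± 0.22 against bone marrow (edgeR adjusted p = 0.0301) on the log2 scale. The first call ended without blood replicate 3 (edgeR adjusted p = 0.0597) and the second without bone marrow replicate 2 or 3 (edgeR adjusted p = 0.089 and 0.0574). With upper-quartile scaling neither held (edgeR adjusted p = 0.119 and 0.252). Uvrag, whose protein takes the place of ATG14 in a second form of the kinase complex, had 64.4, 71.8 and 95.8 CPM in lung, 75.8, 62.7 and 62.6 CPM in blood and 54.7, 51.8 and 57.3 CPM in bone marrow. Its log2 fold change was 0.50 ± 0.17 in lung against bone marrow (edgeR adjusted p = 0.0409), and this ended without any library but lung replicate 1 (edgeR adjusted p = 0.0695 to 0.176). Of its exon bases, 17.6% are shared with a gene on the other strand, and whether the counting used strand is not given in the sources used here. Becn1, Ambra1 and Atg14 did not pass. Becn1, which encodes Beclin 1, had 121, 124 and 197 CPM in lung, 125, 113 and 128 CPM in blood and 145, 169.6 and 186 CPM in bone marrow, and 43.9% of its exon bases overlap Cntd1 on the other strand.

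Among the 6 genes of lipid supply and PI3P binding, Wipi1 set bone marrow apart and Atg2a set lung apart. Wipi1 (chr11:109573521-109611389), which binds PI3P on the phagophore, had 7.97, 8.57 and 9.16 CPM in lung and 7.83, 8.03 and 10.5 CPM in blood, against 42.3, 47.4 and 51.7 CPM in bone marrow. Every bone marrow library was over every lung and blood library, and lung and blood overlapped. The log2 fold change was -2.46 ± 0.16 in lung against bone marrow (edgeR adjusted p = 2.26e-05) and -2.42 ± 0.16 in blood against bone marrow (edgeR adjusted p = 4.18e-05). The sum of the granulocyte precursor markers was also high in bone marrow alone, most of it from Ngp, Ltf and Camp. Mki67 and Top2a overlapped between lung and bone marrow, and the other markers of the list were highest in the bone marrow libraries. Among these, Mpo had 161, 65.5 and 9.41 CPM in bone marrow replicates 1, 2 and 3. The part of precursors in this difference was not tested. Wipi2, the other PI3P binder and the one that recruits ATG16L1, had 49.7, 60.7 and 64.3 CPM in lung, 95.2, 86.8 and 109 CPM in blood and 90.6, 80.2 and 92.2 CPM in bone marrow. It was lower in lung by a log2 fold change of -0.74 ± 0.15 against blood (edgeR adjusted p = 0.00671) and -0.59 ± 0.15 against bone marrow (edgeR adjusted p = 0.013). Without blood replicate 1 or 3 the first call ended (edgeR adjusted p = 0.06 and 0.0978), and without any 1 blood library the second did (edgeR adjusted p = 0.0799 to 0.114). The second also ended with DESeq2 and with both other scalings (adjusted p = 0.0719, 0.105 and 0.0703).

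Atg2a (chr19:6241668-6262304), a lipid transfer protein gene, was the opposite case, with 753, 850.1 and 1139.8 CPM in lung, against 404, 281 and 346 CPM in blood and 560.3, 409.6 and 479.6 CPM in bone marrow. All lung libraries lay above all others. Its log2 fold change was 1.41 ± 0.23 against blood (edgeR adjusted p = 0.00291) and 0.92 ± 0.23 against bone marrow (edgeR adjusted p = 0.0132). The second call ended without bone marrow replicate 2 or 3 (edgeR adjusted p = 0.0821 and 0.0537). Its relative Atg2b had 23.1, 26.5 and 23.3 CPM in lung, 36.5, 37.6 and 32.1 CPM in blood and 30.7, 27.5 and 23.3 CPM in bone marrow. It fell in lung against blood by 0.54 ± 0.14 on the log2 scale (edgeR adjusted p = 0.0183), a call that ended without lung replicate 1 or any 1 blood library (edgeR adjusted p = 0.0597 to 0.089) and with both other scalings (edgeR adjusted p = 0.0543 and 0.121). Atg9a, the lipid scramblase that seeds the phagophore, had 181, 207 and 261 CPM in lung, 115, 101 and 122 CPM in blood and 190.3, 201 and 239 CPM in bone marrow. Blood lay below both other tissues in every library. The difference on the log2 scale was 0.94 ± 0.18 in lung against blood (edgeR adjusted p = 0.00543) and -0.89 ± 0.18 in blood against bone marrow (edgeR adjusted p = 0.00814). Without blood replicate 1 or 2 the first call ended (edgeR adjusted p = 0.062 and 0.0744), and without any 1 blood library the second did (edgeR adjusted p = 0.0799 to 0.169). Of the exon bases of Atg9a, 31.8% lie in another annotated gene on the same strand, so its reads may be shared.

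**Figure D3:**
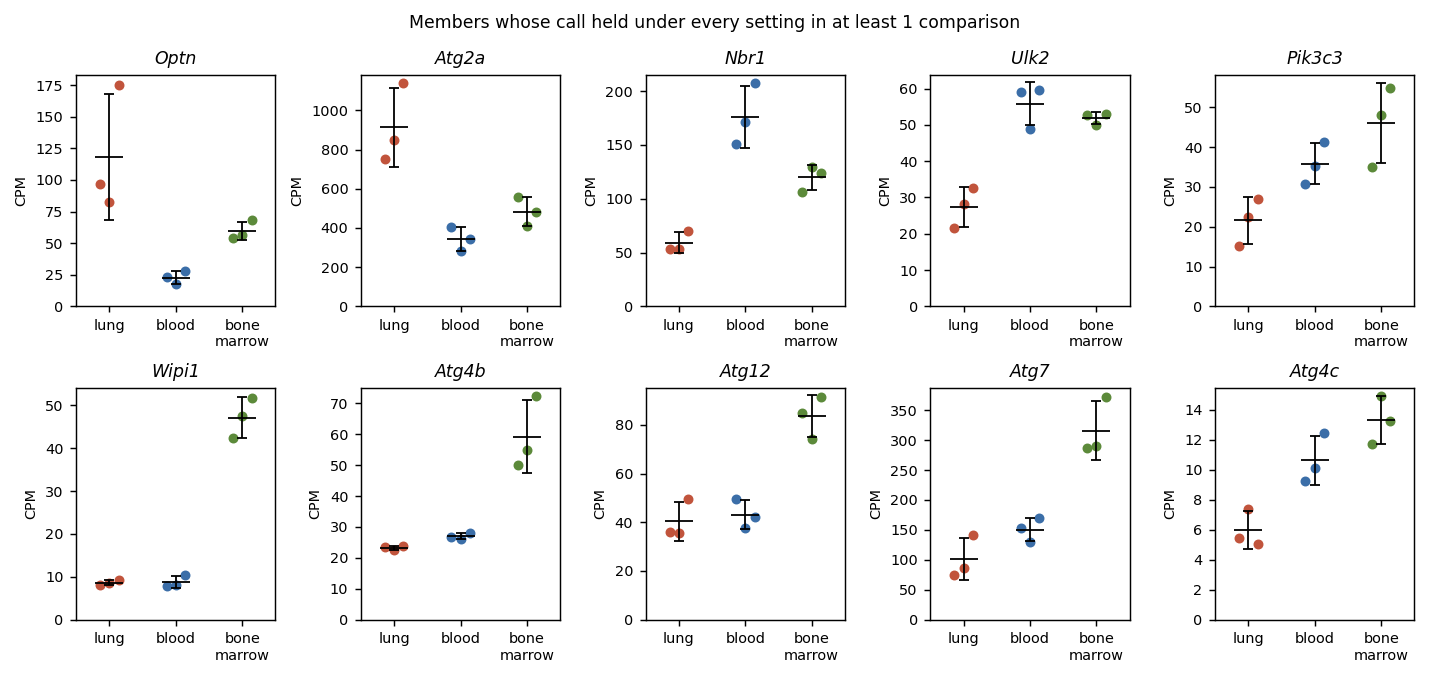
Points are CPM in each library of lung, blood and bone marrow, with the mean and SD as bars (n = 3), for the 10 genes whose call held under every setting in at least 1 comparison. Optn and Atg2a are highest in lung, and Wipi1, Atg4b, Atg12 and Atg7 are highest in bone marrow.

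Of the 7 conjugation genes, 3 were lower in lung than in bone marrow and 3 lower in blood than in bone marrow. Of all genes tested, 22.6% and 13.1% were lower in these 2 comparisons. In the main fit (all 9 libraries, TMM scaling, no block) only Atg16l2 passed between lung and blood. Limma on log2(FPKM + 0.1) also called Atg3, Atg5 and Atg7 lower in lung than in blood. Atg7 (chr6:114643097-114860614), the E1-like enzyme that activates both ATG12 and the LC3 family, had 75.5, 86.4 and 141 CPM in lung and 152, 130.2 and 169 CPM in blood, against 286, 289 and 372 CPM in bone marrow. Every bone marrow library was over every other library. The log2 fold change was -1.65 ± 0.25 in lung against bone marrow (edgeR adjusted p = 0.00108) and -1.07 ± 0.25 in blood against bone marrow (edgeR adjusted p = 0.0156). The second call ended without any 1 blood library or bone marrow replicate 3 (edgeR adjusted p = 0.07 to 0.189). With the replicate block Atg7 was also lower in lung than in blood (edgeR adjusted p = 0.0203). Atg12 (chr18:46732417-46741579), the ubiquitin-like protein that ATG7 activates, had 36.2, 35.5 and 49.6 CPM in lung and 49.4, 37.7 and 42.2 CPM in blood, against 84.8, 74.3 and 91.5 CPM in bone marrow. Lung and blood overlapped, and bone marrow lay above both. On the log2 scale the difference was -1.05 ± 0.17 in lung against bone marrow (edgeR adjusted p = 0.00162) and -0.95 ± 0.17 in blood against bone marrow (edgeR adjusted p = 0.00518). Without any 1 blood library the second call ended (edgeR adjusted p = 0.0563 to 0.114). Atg5, the partner to which ATG12 is joined, had 19.0, 21.1 and 27.1 CPM in lung, 27.1, 23.6 and 29.5 CPM in blood and 29.0, 34.7 and 42.2 CPM in bone marrow. It was lower in lung than in bone marrow by a log2 fold change of -0.66 ± 0.19 (edgeR adjusted p = 0.0226), but without any library other than lung replicate 3 or bone marrow replicate 1 this ended (edgeR adjusted p = 0.0642 to 0.119).

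Atg16l2, a relative of the ATG5 partner Atg16l1, had 63.0, 57.6 and 89.7 CPM in lung, 40.7, 38.4 and 40.8 CPM in blood and 52.6, 59.8 and 70.4 CPM in bone marrow. Blood was below both other tissues in every library. Its log2 fold change was 0.81 ± 0.18 in lung against blood (edgeR adjusted p = 0.0113), a call that ended without any 1 blood library (edgeR adjusted p = 0.0792 to 0.0985). In blood against bone marrow it was -0.61 ± 0.18 (edgeR adjusted p = 0.0442), and this ended without lung replicate 1, any blood library or any bone marrow library (edgeR adjusted p = 0.05 to 0.361). Atg16l1, Atg3 and Atg10 did not pass. Atg16l1 had 48.2, 56.1 and 81.1 CPM in lung, 46.7, 50.4 and 54.3 CPM in blood and 45.2, 47.0 and 45.4 CPM in bone marrow. Atg3, which passes LC3 to its lipid, had 129, 149 and 249 CPM in lung, 283, 251 and 323 CPM in blood and 228, 259 and 305 CPM in bone marrow. Atg3 was, with the replicate block, lower in lung than in blood and in bone marrow (edgeR adjusted p = 0.0126 and 0.0185).

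The ATG4 proteases, which trim LC3 and GABARAP and later release them from lipid, were lower in lung than in bone marrow in 3 of 3 readable genes. In that comparison 22.6% of all genes tested were lower. Atg4b (chr1:93755033-93789529) had 23.4, 22.4 and 23.8 CPM in lung and 26.7, 26.2 and 28.2 CPM in blood, against 50.1, 55.0 and 72.5 CPM in bone marrow. The libraries were tight in lung and blood, and bone marrow lay well above both. The log2 fold change was -1.35 ± 0.15 in lung against bone marrow (edgeR adjusted p = 0.000196) and -1.13 ± 0.15 in blood against bone marrow (edgeR adjusted p = 0.00101). Atg4c (chr4:99193934-99259787) had 5.43, 7.39 and 5.07 CPM in lung, 9.26, 10.1 and 12.5 CPM in blood and 11.7, 14.9 and 13.2 CPM in bone marrow. The lung libraries lay below all others. It fell in lung by 1.16 ± 0.21 against bone marrow (edgeR adjusted p = 0.00272) and by 0.83 ± 0.21 against blood (edgeR adjusted p = 0.0171) on the log2 scale. The call against blood ended without lung replicate 1 or blood replicate 3 (edgeR adjusted p = 0.0588 and 0.0673). The share of its reads given to the shorter of its 2 transcripts, of 2796 bases, was 17.7%, 24.3% and 0% in lung, 0%, 47.4% and 52.5% in blood and 92.3%, 94.5% and 25.9% in bone marrow. These shares are the authors' estimates and varied within each tissue, so only the gene's total is compared. Atg4d had 27.5, 28.6 and 38.2 CPM in lung, 38.7, 40.9 and 47.8 CPM in blood and 42.8, 54.6 and 62.4 CPM in bone marrow. It was lower in lung than in bone marrow at -0.76 ± 0.19 (edgeR adjusted p = 0.0118), a call lost without any 1 blood library (edgeR adjusted p = 0.0574 to 0.0742) and with DESeq2 size factors (edgeR adjusted p = 0.0691). With the replicate block it was also lower in lung than in blood (edgeR adjusted p = 0.0169). RSEM counts gave that call too, with a log2 fold change of -0.64 (edgeR adjusted p = 0.0274). So did limma on log2(FPKM + 0.1) and the fit without lung replicate 3. Of its exon bases, 19.3% overlap Kri1 on the other strand.

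The 5 LC3 and GABARAP genes encode the proteins that coat the autophagosome and hold its cargo receptors. In the main fit (all 9 libraries, TMM scaling, no block) only Map1lc3a passed in lung against blood. By the same fit none passed in lung against bone marrow, and 2 were lower in blood than in bone marrow, where 13.1% of all genes tested were lower. Map1lc3a, which encodes LC3A, had 30.6, 25.8 and 36.97 CPM in lung, 19.1, 8.88 and 9.88 CPM in blood and 21.2, 22.4 and 25.2 CPM in bone marrow. Lung lay above both other tissues, and blood replicate 1 was closest to bone marrow. It differed on the log2 scale by 1.30 ± 0.28 in lung against blood (edgeR adjusted p = 0.00967), and without blood replicate 3 it did not pass (edgeR adjusted p = 0.0589). Gabarapl1 had 20.2, 15.6 and 16.0 CPM in lung, 16.7, 9.86 and 9.20 CPM in blood and 23.6, 19.0 and 18.9 CPM in bone marrow. It was again blood replicate 1 that lay closest to the other tissues. Its log2 fold change was -0.78 ± 0.24 in blood against bone marrow (edgeR adjusted p = 0.0489), a call lost without any library but lung replicate 3 or blood replicate 1 (edgeR adjusted p = 0.0542 to 0.232). Blocking by replicate number made it higher in lung than in blood (edgeR adjusted p = 0.0231). Of its exon bases, 28.3% are shared with a gene on the other strand. Gabarapl2 had 49.1, 44.0 and 72.0 CPM in lung, 50.9, 46.7 and 50.8 CPM in blood and 63.0, 83.5 and 95.5 CPM in bone marrow. It was lower in blood than in bone marrow at -0.71 ± 0.21 (edgeR adjusted p = 0.0438), and this ended without lung replicate 1, any blood library, or bone marrow replicate 2 or 3 (edgeR adjusted p = 0.0512 to 0.324). With the replicate block it was lower in lung than in bone marrow (edgeR adjusted p = 0.0283).

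The most abundant family members did not pass in any comparison in the main fit (all 9 libraries, TMM scaling, no block). Without lung replicate 3, Map1lc3b was called lower in both lung and blood than in bone marrow. Gabarap had 529, 499 and 805 CPM in lung, 518, 418 and 537 CPM in blood and 500.4, 559 and 746 CPM in bone marrow, and its tissues overlapped. Map1lc3b, which encodes the LC3B protein used as the standard autophagosome marker, had 443, 373 and 708 CPM in lung, 469, 316 and 489.6 CPM in blood and 660.4, 656 and 875 CPM in bone marrow. Its log2 fold change was -0.78 ± 0.29 in blood against bone marrow (edgeR adjusted p = 0.0842). With the block it was lower in lung than in bone marrow (edgeR adjusted p = 0.0297). Per length, Gabarap and Map1lc3b made up most of the family's summed FPKM in every library. Gabarap held 57.4% to 60.0% of it in lung, 56.6% to 60.2% in blood and 48.0% to 50.8% in bone marrow. Map1lc3b held 29.4% to 33.1% in lung, 29.8% to 34.4% in blood and 38.4% to 41.5% in bone marrow. The series count of Map1lc3b was 1.37 to 1.60 times its RSEM count, where the totals ran at 1.87 to 1.90 times, so its reads were assigned differently in the 2 countings. Other members also lay below the totals, among them Wipi1 (1.525 to 1.693), Wipi2 (1.567 to 1.761) and Atg16l2 (1.551 to 1.666). For Atg4d the ratio was 1.518 to 1.693 in lung and 1.358 to 1.375 in blood.

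**Figure D4:**
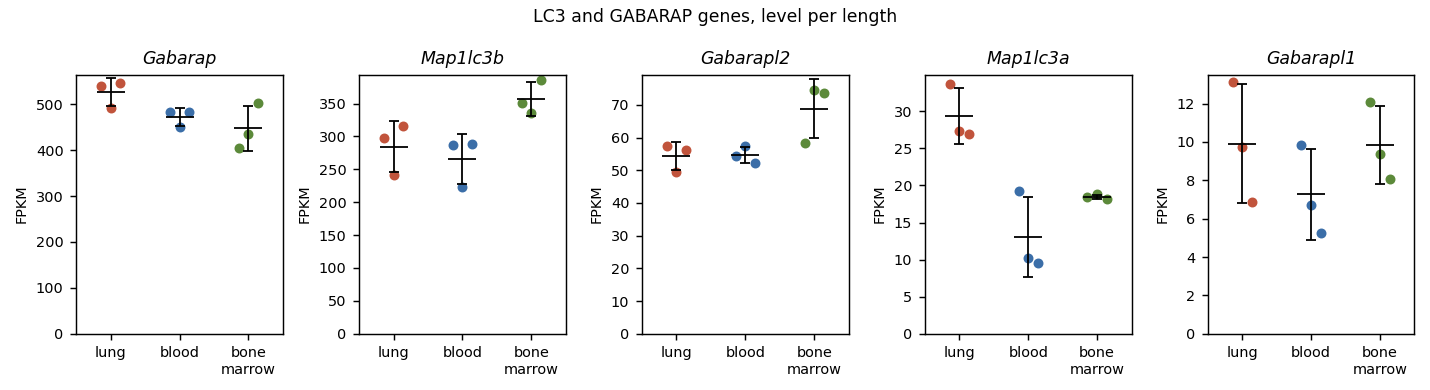
Points are the deposited FPKM of the 5 LC3 and GABARAP genes in each library of lung, blood and bone marrow, with mean and SD as bars (n = 3). Gabarap and Map1lc3b stand far above the rest, and Map1lc3a is highest in the 3 lung libraries.

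The cargo receptors moved in opposite directions. Optn (chr2:5020642-5063938), which encodes optineurin, a receptor for damaged mitochondria and bacteria, had 96.6, 82.8 and 175 CPM in lung, against 22.8, 17.8 and 27.7 CPM in blood and 54.3, 56.8 and 68.1 CPM in bone marrow. No 2 tissues overlapped, lung was highest and blood lowest, and the highest library was lung replicate 3. Optn was the only member that passed in all 3 comparisons. On the log2 scale the difference was 2.38 ± 0.30 in lung against blood (edgeR adjusted p = 0.000865), 0.99 ± 0.28 in lung against bone marrow (edgeR adjusted p = 0.0241) and -1.39 ± 0.29 in blood against bone marrow (edgeR adjusted p = 0.00959). RSEM counts gave 2.47 in lung against blood (edgeR adjusted p = 0.00418). The second call ended without blood replicate 1 or any 1 bone marrow library (edgeR adjusted p = 0.0508 to 0.0975), and the third without any 1 blood library (edgeR adjusted p = 0.0501 to 0.121).

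Nbr1 (chr11:101552107-101581951), a receptor for ubiquitin-tagged protein, had 53.6, 53.7 and 70.2 CPM in lung, against 150.4, 171 and 207 CPM in blood and 107, 129 and 124 CPM in bone marrow. Here lung was lowest and blood highest, with no overlap between any 2 tissues. The log2 fold change was -1.57 ± 0.18 in lung against blood (edgeR adjusted p = 0.000585) and -1.02 ± 0.18 in lung against bone marrow (edgeR adjusted p = 0.00212). In blood against bone marrow it was 0.56 ± 0.17, which did not pass (edgeR adjusted p = 0.0517). Calcoco1, a receptor that serves the endoplasmic reticulum, had 33.1, 42.0 and 42.0 CPM in lung, 58.6, 58.3 and 65.3 CPM in blood and 47.3, 47.9 and 54.3 CPM in bone marrow. It fell in lung against blood by 0.64 ± 0.13 on the log2 scale (edgeR adjusted p = 0.00779), a call lost without any 1 blood library (edgeR adjusted p = 0.0557 to 0.0997) and with DESeq2 size factors (edgeR adjusted p = 0.0517). With the replicate block it was also lower in lung than in bone marrow (edgeR adjusted p = 0.0286). Tax1bp1, the most abundant receptor per length, did not pass, at 308, 328 and 623 CPM in lung, 306, 217 and 266 CPM in blood and 378, 329 and 413 CPM in bone marrow. Of the summed FPKM of the 4 receptors, Optn held 21.3% to 25.5% in lung, 5.63% to 7.14% in blood and 12.7% to 14.1% in bone marrow. Nbr1 held 5.24% to 7.43% in lung, 21.0% to 28.3% in blood and 13.1% to 16.7% in bone marrow.

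Ratios of related genes within a library do not depend on the scaling between libraries, and 7 such pairs were computed from FPKM, with no test. Atg2a stood at 52.3, 51.5 and 78.6 times Atg2b in lung, against 17.7, 12.0 and 17.3 times in blood and 29.3, 23.9 and 33.1 times in bone marrow. The mean ratio in lung was 3.88 times that in blood, and no 2 tissues overlapped. Wipi1 stood at 0.345, 0.303 and 0.307 of Wipi2 in lung, 0.177, 0.199 and 0.207 in blood and 1.00, 1.27 and 1.21 in bone marrow. Wipi1 was above Wipi2 in the 3 bone marrow libraries and below it in the 6 others. Ulk1 stood at 9.28, 9.59 and 10.2 times Ulk2 in lung, against 5.40, 5.76 and 6.42 times in blood and 5.62, 5.71 and 6.26 times in bone marrow. Blood and bone marrow overlapped there, and lung lay above both. Map1lc3a stood at 0.113, 0.113 and 0.0856 of Map1lc3b in lung, 0.0671, 0.0460 and 0.0331 in blood and 0.0526, 0.0560 and 0.0471 in bone marrow. Gabarapl2 over Gabarap was 0.103 ± 0.003 in lung, 0.116 ± 0.010 in blood and 0.154 ± 0.015 in bone marrow (SD, n = 3 each). Atg16l1 over Atg16l2 was 0.615 ± 0.076 in lung, 0.882 ± 0.069 in blood and 0.531 ± 0.077 in bone marrow. Gabarapl1 over Gabarap overlapped between all tissues.

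**Figure D5:**
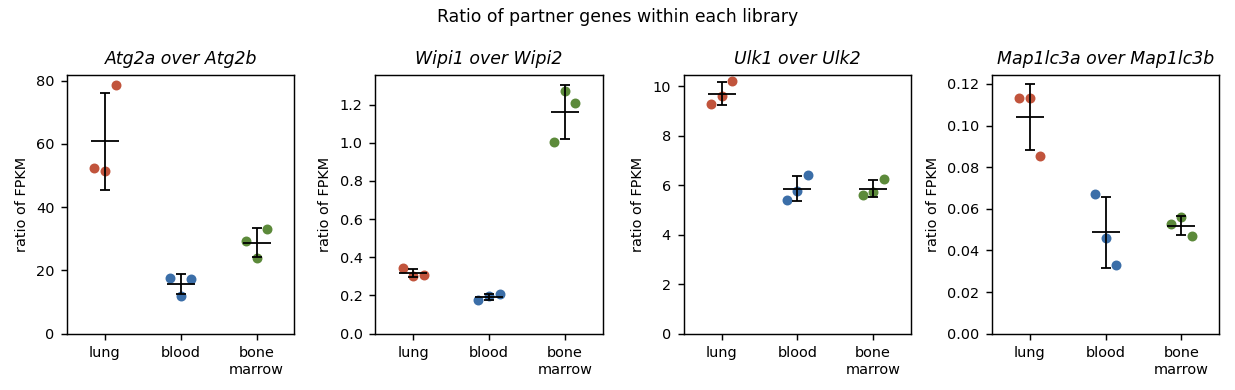
Points are the ratio of deposited FPKM within each library of lung, blood and bone marrow, with mean and SD as bars (n = 3), for 4 pairs of related genes. Atg2a over Atg2b, Ulk1 over Ulk2 and Map1lc3a over Map1lc3b are highest in lung, and Wipi1 over Wipi2 is highest in bone marrow.

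Over the 3 comparisons, 13 members were called in none, 9 in 1, 14 in 2 and 1 in 3. No call was made for 35.1% of the members and 49.8% of all genes tested. The shares of all genes called in 1, 2 or 3 comparisons were not computed. The commonest pattern, in 7 members, was a lower level in lung than in both blood and bone marrow, with no call between the last 2, which 8.36% of all genes tested showed. A further 4, against 6.63% of all genes, were lower in both lung and blood than in bone marrow with no call between lung and blood: Wipi1, Atg4b, Atg7 and Atg12.

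Some calls also ended under settings other than leaving out 1 library. These settings include the fit of only the 2 tissues compared. In lung against blood they include the RSEM counts, which hold no bone marrow libraries. Of 10 such settings in lung against blood, Rb1cc1 and Pik3c3 lost the call in 7 each, Pik3r4 in 4, Atg2b in 3, Atg4c in 2 and Calcoco1 in 1. Of 9 in lung against bone marrow, Rb1cc1 and Wipi2 lost it in 7 each, Atg5 and Atg101 in 6 each, Atg4d in 4, Pik3r4 and Uvrag in 2 each and Optn in 1. Of 9 in blood against bone marrow, Gabarapl1 and Gabarapl2 lost it in 6 each, Atg16l2 in 5, and Atg7 and Atg9a in 1 each.

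Genes around the machinery were followed in 4 lists. Of 36 upstream regulators, 4 were higher and 8 lower in lung than in blood, 2 higher and 10 lower in lung than in bone marrow, and 2 higher and 8 lower in blood than in bone marrow. As shares these were 11.1% and 22.2%, 5.56% and 27.8%, and 5.56% and 22.2%, against 13.2% and 15.7%, 15.6% and 22.6%, and 8.34% and 13.1% of all genes. The list's median log2 fold changes were 0.06, -0.14 and -0.01, against 0.05, 0.06 and -0.05 over all genes. Rheb, the small GTPase that activates mTORC1, changed by 1.98 ± 0.24 in lung against blood (edgeR adjusted p = 0.000724), and Trp53inp1, whose protein binds LC3, by -1.97 ± 0.23 (edgeR adjusted p = 0.000626). The survival gene Bcl2l1, whose protein binds Beclin 1, changed by 1.44 ± 0.26 (edgeR adjusted p = 0.0041). Against bone marrow, Mlst8, an mTOR complex subunit gene, changed by -2.68 ± 0.48 in lung and -2.64 ± 0.48 in blood (edgeR adjusted p = 0.00249 and 0.00519). Lamtor4, part of the lysosomal platform of mTORC1, changed by -2.16 ± 0.21 in lung and -1.74 ± 0.21 in blood (edgeR adjusted p = 0.000106 and 0.000618), and Rragd, a GTPase of the same platform, by -1.62 ± 0.31 and -2.83 ± 0.32 (edgeR adjusted p = 0.00349 and 0.000474). These calls held under every setting tried.

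Of 25 tested cargo receptors and mitophagy genes outside the 37, 3 were higher and 3 lower in lung than in blood, 2 higher and 8 lower in lung than in bone marrow, and 7 lower in blood than in bone marrow. In lung against blood 12% were called each way, against 13.2% higher and 15.7% lower over all genes. Against bone marrow 8% were higher and 32% lower in lung, where all genes gave 15.6% and 22.6%, and 28% were lower in blood, where all genes gave 13.1%. With the replicate block 13 of the 25 were called in lung against blood, over 1.5 times the 6 without it. The medians were 0.06, -0.23 and -0.34. Sqstm1, which encodes the receptor p62, changed by 1.37 ± 0.28 in lung against blood and 1.12 ± 0.28 in lung against bone marrow (edgeR adjusted p = 0.00715 and 0.0124). The first call ended without blood replicate 2 or 3 (edgeR adjusted p = 0.0557 and 0.0621) and the second without bone marrow replicate 1 or 2 (edgeR adjusted p = 0.0524 and 0.0641). In lung against blood the largest changes in the list were both lower in lung: Cbl, a ubiquitin ligase gene, changed by -1.75 ± 0.30 and Nlrx1, a receptor gene of the mitochondrion, by -1.74 ± 0.19 (edgeR adjusted p = 0.00332 and 0.000557). Nlrx1 changed by -2.60 ± 0.20 and Cbl by -2.01 ± 0.30 in lung against bone marrow (edgeR adjusted p = 3.66e-05 and 0.00095). Tbk1, the kinase that phosphorylates optineurin, changed by 1.27 ± 0.23 in lung against blood (edgeR adjusted p = 0.00482, and 0.0518 without blood replicate 1). Ncoa4, the receptor for ferritin, changed by -2.05 ± 0.20 in lung and -2.06 ± 0.20 in blood against bone marrow (edgeR adjusted p = 9.79e-05 and 0.000187). Erythroid markers were also highest in bone marrow, and their part in this was not tested.

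Of 28 tested genes of the phagophore and its lipid supply, 2 were higher and 7 lower in lung than in blood, 3 higher and 14 lower in lung than in bone marrow, and 2 higher and 3 lower in blood than in bone marrow. As shares these were 7.14% and 25%, 10.7% and 50%, and 7.14% and 10.7%, to be read against the shares of all genes given above. The medians were -0.30, -0.56 and -0.32. Vmp1, a scramblase of the endoplasmic reticulum that works with ATG2, changed by 2.33 ± 0.39 in lung against blood (edgeR adjusted p = 0.00317). In lung against bone marrow it changed by 1.47 ± 0.38 (edgeR adjusted p = 0.0153), a call lost without bone marrow replicate 1 or 2 (edgeR adjusted p = 0.0671 and 0.0764). Zfyve1, which marks the membrane site where phagophores form, changed by -1.39 ± 0.17 in lung against bone marrow (edgeR adjusted p = 0.00032). Of 30 genes of fusion with the lysosome, 5 were higher and 9 lower in lung than in blood, 6 higher and 11 lower in lung than in bone marrow, and 3 higher and 7 lower in blood than in bone marrow. As shares these were 16.7% and 30%, 20% and 36.7%, and 10% and 23.3%, against the same shares of all genes. The medians were 0.01, -0.36 and -0.07. Rab7, the GTPase of late endosomes, changed by 1.87 ± 0.32 in lung against blood (edgeR adjusted p = 0.00356). Mon1b, a part of the factor that loads RAB7, changed by -1.34 ± 0.15 in lung against blood and -1.26 ± 0.15 in lung against bone marrow (edgeR adjusted p = 0.000513 and 0.000249). Plekhm1, the adaptor between RAB7 and LC3, changed by -1.79 ± 0.16 in lung against bone marrow (edgeR adjusted p = 6.16e-05), and Vps41, a tethering subunit, by -1.33 ± 0.20 in blood against bone marrow (edgeR adjusted p = 0.00207). Leaving out 1 library at a time moved these counts, and the calls over all genes moved too. In lung against blood the upstream list gave 4 to 12 calls against 12, the receptor list 4 to 11 against 6, the phagophore list 3 to 17 against 9 and the fusion list 5 to 16 against 14. In lung against bone marrow the ranges were 9 to 16 against 12, 9 to 17 against 10, 11 to 20 against 17 and 11 to 19 against 17. In blood against bone marrow they were 5 to 12 against 10, 1 to 10 against 7, 1 to 12 against 5 and 3 to 12 against 10.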

How the data were processed

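Neutrophils sorted by FACS from lung, blood and bone marrow gave 9 polyA RNA libraries, 3 per tissue. The labels name 2 library kits, 1 of which has stranded in its name. The submitters' processing notes list build mm10 and the tools RSEM, DESeq2, STAR, Bowtie2 and StringTie 2.1.3b, without roles. Whole read counts are held by the deposited series table, with the authors' FPKM, per the file headers, for 36780 RefSeq transcripts. The deposited lung and blood files hold RSEM expected counts and TPM, per the file headers. The deposited bone marrow files repeat the series table.

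Counts were summed by gene. EdgeR 4.0.16 (R 4.3.3) kept 13510 genes by filterByExpr and fitted all 9 libraries with group means, trimmed-mean scaling and robust quasi-likelihood. P-values were Benjamini-Hochberg adjusted over all genes tested, with a threshold of 0.05. SE is the absolute log2 fold change over the square root of F, and the common coefficient of variation was 0.448. The fit was tested on simulated data. Alternatives were DESeq2 1.42.0, limma 3.58.1 (voom, and log2(FPKM + 0.1)), other scalings, no filter, 2 tissues, counts divided by 2, RSEM expected counts rounded to whole numbers, a replicate block, and leaving out each library. TPM was read but not compared between tissues. Promoters and positions came from RefSeq, GRCm38.p6, and overlaps from GENCODE. A floor of 3 reads is 0.0521 to 0.0767 CPM, for counting error only. Python 3.11.15 drew the figures.

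Members were named with values in every library where they passed in at least 1 comparison, with all LC3 and GABARAP genes, and from each pathway list at most the 4 largest passing changes per comparison, of which the text prints fewer. Partners of a described complex that did not pass were also given with values, chosen after their values were seen. The members and lists were chosen with earlier results of these data known. Replicates are numbered as in the titles; the table's own column numbers are higher by 1. Same-numbered libraries deviated together in lung and blood (correlations of 0.127 to 0.518) and in lung and bone marrow (0.153 to 0.186). Unlike-numbered libraries, over all comparisons, ran from -0.504 to 0.453. Lung replicate 1 deviated more closely with blood replicate 2 (0.453) than with blood replicate 1 (0.127). The numbers were taken to pair lung with blood and with bone marrow, from these values and not from the labels. Such a pairing would also pair blood with bone marrow, where same-numbered libraries correlated at 0.0489 to 0.382. The values do not single out that pairing, and a blocked p is given where it changes a call.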

Additional observations from a re-analysis of the deposited data

How the results depend on the processing

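Leaving out 1 library at a time gave 5 to 17 member calls in lung against blood, 10 to 22 in lung against bone marrow and 2 to 12 in blood against bone marrow, against 14, 17 and 9. Calls over all genes ran from 1922 to 5852, 3258 to 6984 and 1236 to 3965 in these fits, against 3900, 5158 and 2892. Without a filter on low counts the calls were 11 in lung against bone marrow and 4 in blood against bone marrow. With only the 2 tissues compared, lung against bone marrow gave 10. The cause of these moves was not tested, beyond fewer samples in the smaller fits. With the replicate number as a block the calls were 19 in lung against blood and 22 in lung against bone marrow, and beyond the members named in the report it changed no other member's call there. In blood against bone marrow, where same-numbered libraries correlated at 0.0489 to 0.382, the block gave 14 calls against 9. Nbr1 and Atg2b were then higher in blood (edgeR adjusted p = 0.0137 and 0.0407). Map1lc3a, Map1lc3b and Atg101 were lower (edgeR adjusted p = 0.0378, 0.0119 and 0.0264). The block also moved the calls in blood against bone marrow to 11 against 7 in the receptor list and 14 against 5 in the phagophore list. No sign changed among called members. Of the calls, 4 of 14, 8 of 17 and 2 of 9 held under every setting. Members not called became called under at least 1 setting in 8, 10 and 12 cases in the 3 comparisons. Atg9b had 0 to 24 reads per library, and no difference was detectable in it at this depth.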
